A study of Mus musculus with 6 samples.

Results

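The 10 genes described here are receptors, ligands and direct target genes of the Notch pathway: the receptors Notch1, Notch2, Notch3 and Notch4, the ligands Dll1, Dll4, Jag1 and Jag2, and the targets Hes1 and Hey1. They were taken by symbol, as a list, from the 24389 Ensembl gene identifiers in the deposited files, and all 10 were found. The samples were dorsal pancreata of mouse embryos at E13.5, in mid-gestation, on a mixed C57BL/6 and ICR background. In 3 libraries the embryos carried a knockout (KO) of Bicaudal C1, the RNA-binding protein encoded by Bicc1, and in 3 libraries they were wild type (WT). The labels do not describe the deleted part of the gene, and they do not say whether a library holds 1 embryo or a pool. The spread behind each p-value is therefore that between libraries within the groups of 3, which may be partly technical. It was pooled over both groups and moderated across genes.

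Notch receptors are transmembrane proteins that are cleaved after they bind a Delta or Jagged ligand on a neighbouring cell. The released intracellular domain joins the DNA-binding protein Rbpj and coactivators of the Mastermind family in the nucleus and switches on genes such as Hes1 and Hey1, which encode transcriptional repressors. In the embryonic pancreas Hes1 keeps progenitor cells undifferentiated by repressing Neurog3, the gene that commits cells to the endocrine fate, and Dll1 is made by cells that enter that fate. In blood vessels Dll4 and Notch4 belong to the endothelium, and Notch3 belongs to pericytes and smooth muscle.

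Bicc1 itself was 3.96, 4.91 and 4.48 in the KO libraries, against 19.7, 19.5 and 18.2 in the WT libraries, so the libraries followed their labels. The values are a read density averaged over the annotated exonic bases of a gene, without a stated unit. From the steps in genes with a single short exon, 1 read was worth between 6.06 and 8.51 divided by the exon length in bases, which would correspond to 118 M to 165 M reads per library if the density is per kilobase and M reads. The largest contrast between libraries, a first principal component with 57.3% of the variance, set KO 1, KO 2 and WT 3 (here the GC-high set) apart from KO 3, WT 1 and WT 2 (the GC-low set). Its libraries followed the GC content of genes, with Spearman's rho across genes of 0.40 to 0.61 in the GC-high set and of -0.66 to -0.19 in the GC-low set. Xist, made from the inactive X chromosome of females, was 3.63 to 4.63 in the GC-high set and 0.01 to 1.33 in the GC-low set, and the mean of 4 Y-linked genes was 2.34 to 4.60 and 5.64 to 7.92. Both were well above the floor of 0.01 in every library except WT 2, where Xist was 0.01. Apart from WT 2, the libraries thus read as mixtures of female and male RNA in uneven shares, more than 1 embryo each, which was not tested. Because of the contrast between the sets, differences are also given within each set and after a correction for GC content. Markers of the labelled tissue were present, with a summed level of 12 pancreatic epithelial genes of 576 to 859 in KO and 641 to 762 in WT. Of 8 markers of stomach, intestine and liver, whose sum was 9.16 to 13.9 in KO and 9.56 to 12.2 in WT, Tff2, Cdx1 and Cdx2 stayed at or under 0.1 in every library. Others of that list were present: the stomach mesenchyme factor Barx1 was 5.04, 3.14 and 2.90 in KO and 1.44, 1.18 and 2.70 in WT, higher in every KO library (limma, adjusted p = 0.469), and the fetal liver gene Afp averaged 6.46 ± 1.11 in KO and 7.42 ± 0.324 in WT (SD, n = 3).

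Across the 10 genes, Hes1 was lower and Notch3 and Notch4 were higher in every KO library than in any WT library, and the groups overlapped for the other 7. The sizes were modest: the KO mean was 84.8% of the WT mean for Hes1, 138% for Notch3 and 131% for Notch4. None of the differences passed the test. With a mean value of at least 1, 8 of the 10 genes entered limma, a moderated linear model fitted across all 13911 genes that passed this filter, on log2(value + 1), and Notch4 and Jag2 did not. At an adjusted p of 0.05 (Benjamini-Hochberg over all genes) limma called 0 of the 8, where it called 2 genes in all, Bicc1 and 4930533K18Rik, both lower in KO (0.0144% of the genes tested), of which the second overlaps exons of Bicc1. At an unadjusted p of 0.05 limma called 2 of the 8, Notch3 and Hes1, beside 10.3% of all genes. Of all tested genes, 16.4% had KO and WT values that did not overlap, 7.67% with KO above WT and 8.77% with KO below. Among the 8 tested Notch genes these were 1 above, Notch3, and 1 below, Hes1, as Notch4 was not tested. The median log2 difference of the 8 genes was -0.0053, against 0.014 over all genes tested. For a gene taken alone, the smallest two-sided p that an exact permutation of 3 and 3 libraries allows is 0.1, so none was tested alone.

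**Figure D1:**
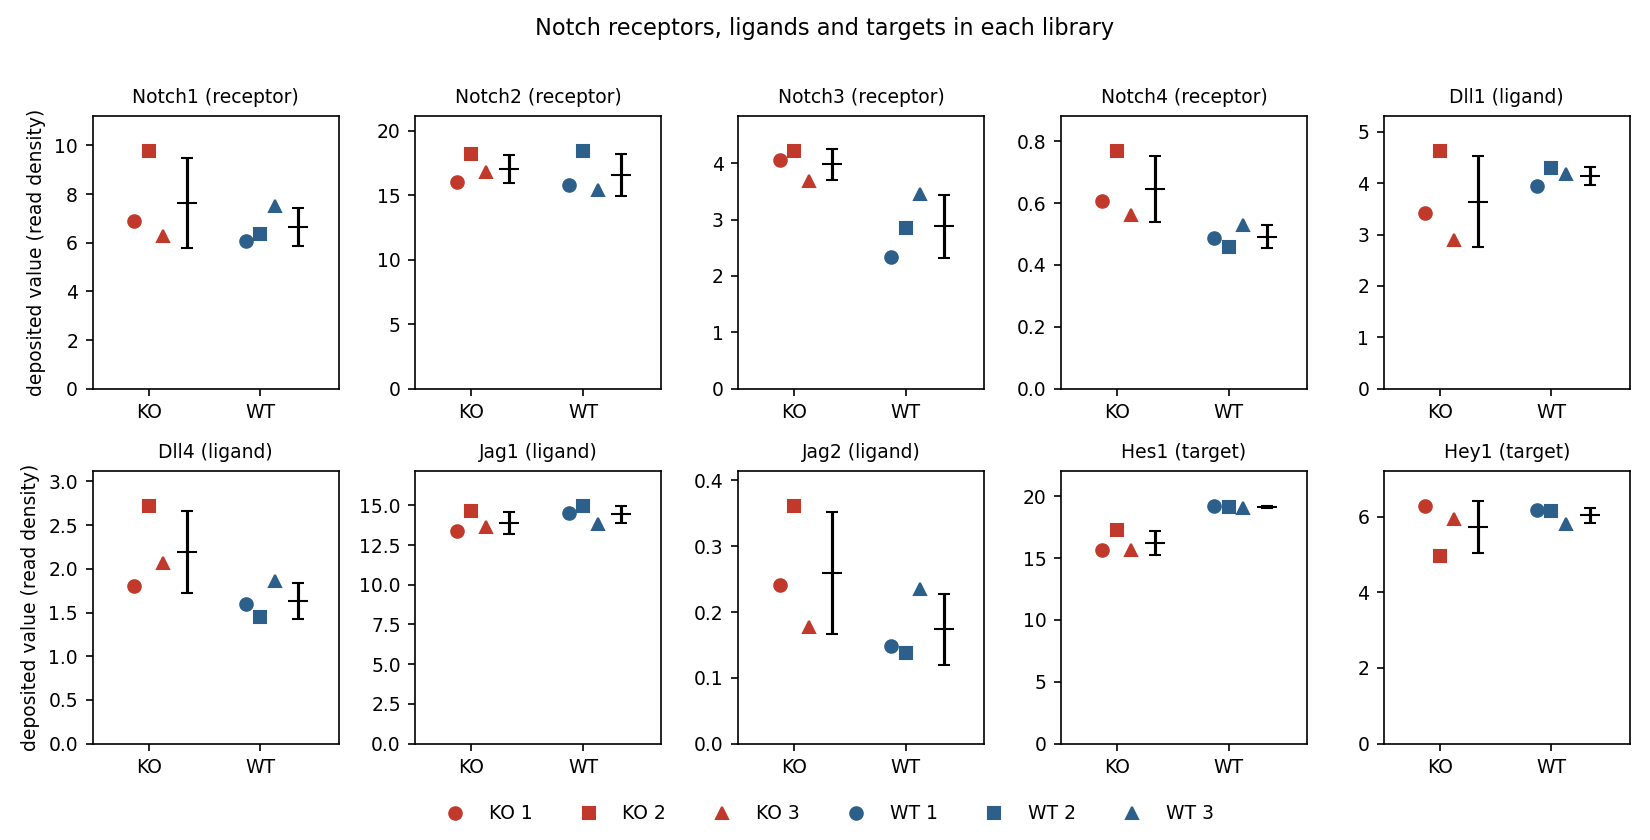
Deposited value (read density, linear axes from 0) of each of the 10 genes in the 3 KO and 3 WT libraries, 1 symbol per library, with the mean and SD of each group as black bars. Hes1 is lower in all KO libraries (15.7 to 17.3 against 19.1 to 19.2 in WT), Notch3 and Notch4 are higher in all KO libraries, and the groups overlap in the other 7 panels.

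Because the density is per exonic base, levels can be set side by side between genes, although bases of isoforms that the tissue does not use lower a gene's value. GC content may also shift levels between genes, from 50.7% for Hes1 to 61.9% for Jag2, and this was not tested. In WT libraries Hes1 had the highest density (19.1 ± 0.068, SD, n = 3, as for all means here), followed by Notch2 (16.5 ± 1.63), Jag1 (14.4 ± 0.563), Notch1 (6.65 ± 0.772), Hey1 (6.04 ± 0.198), Dll1 (4.15 ± 0.179), Notch3 (2.88 ± 0.560), Dll4 (1.64 ± 0.205), Notch4 (0.492 ± 0.036) and Jag2 (0.174 ± 0.054). Neighbours in this order did not overlap between WT libraries, except Notch1 and Hey1. In KO libraries the values of Hes1 and Notch2 overlapped, and so did those of Dll1 and Notch3.

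Notch2, the most abundant of the receptors, had a density of 16.0, 18.2 and 16.8 in the KO libraries and of 15.8, 18.4 and 15.4 in the WT libraries. The groups overlapped fully, and the log2 difference of 0.040 had a 95% interval of -0.17 to 0.25 (limma, adjusted p = 0.848). Notch1, the receptor most studied in pancreatic progenitors and also made by endothelium, was 6.88, 9.75 and 6.28 in KO and 6.07, 6.35 and 7.52 in WT. KO 2 stood above the other libraries, while KO 1 and KO 3 lay within the WT range. Its log2 difference of 0.16 (95% interval -0.20 to 0.52, limma adjusted p = 0.643) was -0.033 after GC correction and -0.0087 without KO 2, and the GC content of its longest transcript was 57.1%.

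Notch3, the receptor of pericytes and vascular smooth muscle, was 4.06, 4.21 and 3.68 in KO and 2.33, 2.86 and 3.45 in WT. All KO libraries lay above all WT libraries, with KO 3 and WT 3 closest to each other. The log2 difference was 0.37 (SE 0.117, 95% interval 0.096 to 0.64), with an adjusted p of 0.469 in limma. It was 0.20 in the GC-high set and 0.38 in the GC-low set, and after GC correction it was 0.13 (limma, adjusted p = 0.682), where the transcript had a GC content of 59.6%. Markers of pericytes and smooth muscle lay higher in the same libraries. Their summed level (10 genes) reached 131, 111 and 126 in the KO libraries, against 98.1, 103 and 107 in the WT libraries, with 7 of 8 tested markers higher in the mean (53.5% of all genes), 4 of them at an unadjusted p of 0.05 in limma (5.89% of all genes). The median log2 difference of these markers was 0.32, and 0.15 after GC correction. Pdgfrb, the receptor that pericytes need, was 30.7 ± 1.72 in KO and 24.6 ± 2.33 in WT, while Rgs5, another pericyte gene, was 25.8 ± 3.83 and 31.2 ± 4.84, and the smooth muscle gene Cnn1 was at or under 0.1 in every library. Set against this sum, a ratio chosen, like the other marker shares below, after the values were seen, Notch3 was 3.08%, 3.78% and 2.92% in KO and 2.38%, 2.77% and 3.23% in WT, and these shares overlapped between groups. The part of the markers in the difference was not tested, and in whole tissue more cells of a type and more RNA per cell cannot be told apart.

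Notch4, the endothelial receptor, was the lowest of the receptors, with 0.605, 0.767 and 0.562 in KO and 0.487, 0.458 and 0.530 in WT. Every KO value was above every WT value, and the values stood for 428 to 834 estimated reads per library. In a fit of all 24389 genes without the filter on low values, the log2 difference of Notch4 was 0.14 (95% interval 0.0028 to 0.28, limma adjusted p = 0.528). Dll4, the Delta ligand of endothelial cells, had a density of 1.80, 2.72 and 2.07 in KO, against 1.60, 1.45 and 1.86 in WT. KO 1 lay under WT 3, so that the groups overlapped, and KO 2 was highest. Its log2 difference was 0.27 (SE 0.122, 95% interval -0.016 to 0.55), with an adjusted p of 0.469 in limma, and it was 0.11 after GC correction (limma, adjusted p = 0.716).

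Endothelial markers were higher beside Dll4 and Notch4. Macrophage and erythroid markers were mostly higher in the mean, with sums that overlapped between the groups. The summed level of 12 endothelial genes was 140, 151 and 164 in KO and 122, 120 and 129 in WT, with 11 of 12 markers higher in the mean (53.5% of all genes) and 6 at an unadjusted p of 0.05 in limma (5.89% of all genes). Their median log2 difference was 0.25, and 0.14 after GC correction. The summed level of 8 macrophage genes was 48.0 to 55.6 in KO and 41.4 to 49.7 in WT. Of these, 7 of 8 were higher in the mean (53.5% of all genes), 4 at an unadjusted p of 0.05 in limma (5.89% of all genes). Their median log2 difference was 0.25, or 0.096 after GC correction. For 6 erythroid genes the sum was 700 to 1263 in KO and 557 to 1182 in WT. Of the 5 tested, 4 were higher in the mean (53.5% of all genes), and the median log2 difference was 0.22, or 0.19 after GC correction. Pecam1, an adhesion molecule of endothelial cells, averaged 46.1 ± 7.04 in KO and 35.8 ± 0.921 in WT, and the endothelial cadherin Cdh5 was 22.5 ± 1.25 and 17.8 ± 0.359. As a share of the endothelial sum, Dll4 was 1.29%, 1.80% and 1.26% in KO and 1.31%, 1.21% and 1.44% in WT. For Notch4 this share was 0.433%, 0.508% and 0.343% in KO and 0.398%, 0.381% and 0.411% in WT. Set against the sum of 7 arterial genes, Dll4 was 2.70%, 3.95% and 3.01% in KO and 2.37%, 2.18% and 2.90% in WT. All these shares overlapped between the groups, and the part of the endothelial, macrophage and erythroid markers in the differences was not tested. The arterial sum itself ranged over 66.7 to 68.9 in KO and 64.1 to 67.5 in WT. Most of this sum came from Nrp1 in every library, so the sum and the Dll4 shares of it mainly follow that gene. Of the arterial genes, 5 of 6 tested, all but Nrp1, were higher in the mean (53.5% of all genes). At an unadjusted p of 0.05 in limma 3 were higher (5.89% of all genes). The median log2 difference of the arterial genes was 0.15, and 0.028 after GC correction.

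**Figure D2:**
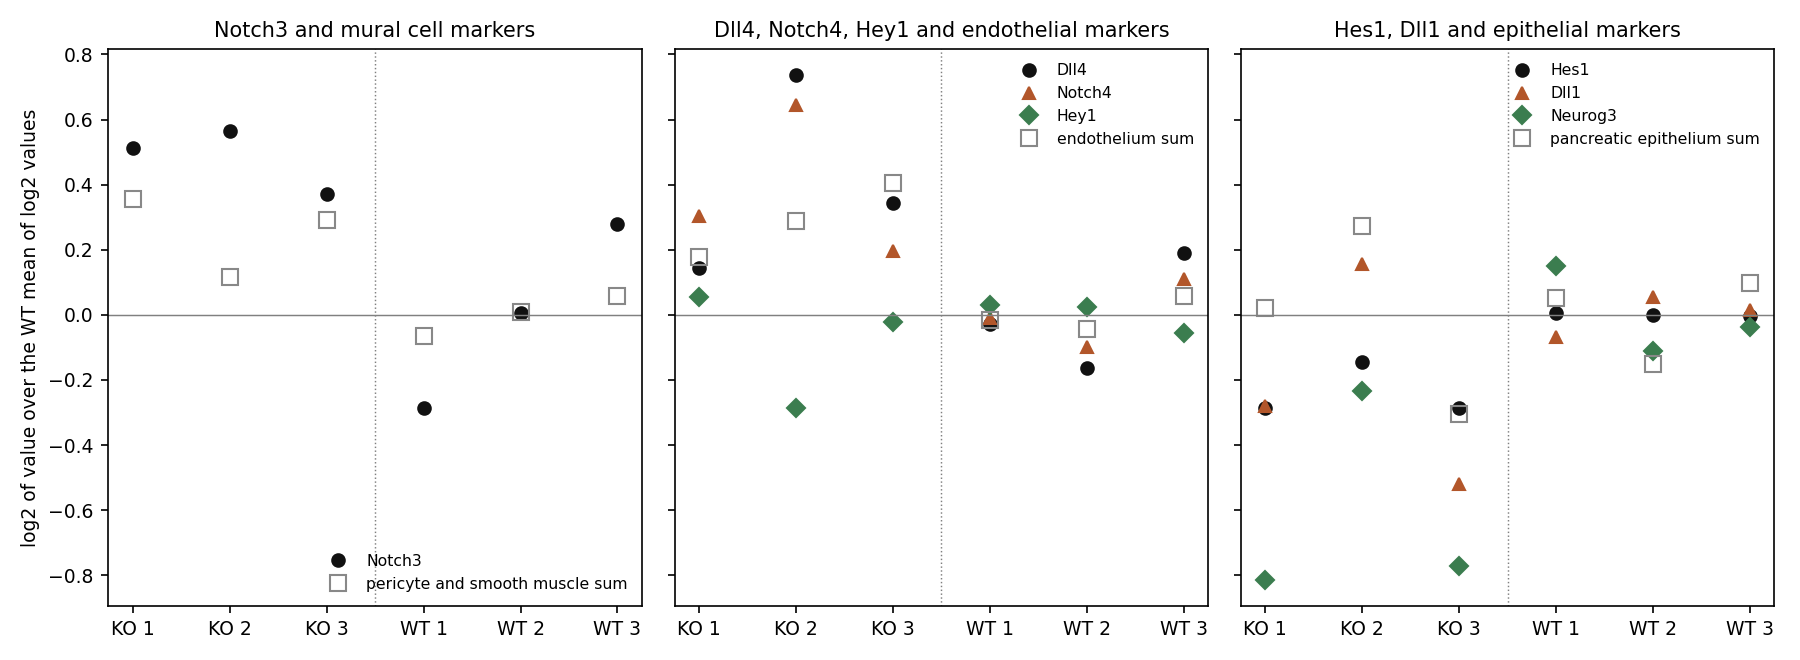
Log2 of each value (no pseudocount) minus the mean log2 of the WT libraries, for Notch pathway genes (filled symbols) and for the summed level of marker genes (open squares), in the 3 KO libraries and then the 3 WT libraries. The sum of pericyte and smooth muscle markers (111 to 131 in KO, 98.1 to 107 in WT) and of endothelial markers (140 to 164 in KO, 120 to 129 in WT) is higher in KO beside Notch3, Dll4 and Notch4, and the epithelial sum overlaps between the groups.

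Jag1, the most abundant ligand, which binds Notch receptors in epithelium and vessel wall, was 13.4, 14.7 and 13.6 in KO and 14.5, 14.9 and 13.8 in WT. The groups overlapped, and the log2 difference of -0.051 had a 95% interval of -0.22 to 0.11 (limma, adjusted p = 0.752), the narrowest interval among the tested ligands. Jag2, the other Jagged ligand, was the lowest of the 10 genes, at 0.240, 0.361 and 0.178 in KO and 0.148, 0.138 and 0.236 in WT. These values stood for 66 to 200 estimated reads, KO 3 lay under WT 3, and in the fit without a filter the log2 difference was 0.10 (95% interval -0.047 to 0.25, limma adjusted p = 0.588).

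Dll1, the Delta ligand that Neurog3-expressing cells present to their neighbours, was 3.42, 4.62 and 2.89 in KO and 3.95, 4.30 and 4.18 in WT. KO 1 and KO 3 lay below all WT libraries and KO 2 above them. The log2 difference was -0.17 (SE 0.134, 95% interval -0.48 to 0.15), with an adjusted p of 0.587 in limma. In the GC-high set it was -0.058 and in the GC-low set -0.40. Leaving out KO 2 gave -0.31, leaving out KO 3 gave -0.046 and GC correction gave -0.30, and limma's adjusted p was between 0.465 and 0.907 over all alternatives. In the reference annotation 20.5% of the exonic bases of Dll1 lie under exons of A930024N18Rik, and as the kit keeps no strand, reads of both genes cannot be told apart there. For Notch1 this overlap is 9.76%, for Notch2, Notch3 and Dll4 it is 5.02% to 6.03%, and for the other 5 genes it is 0%.

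Neurog3 was 34.0, 50.9 and 35.1 in KO and 66.4, 55.4 and 58.3 in WT, below WT in all KO libraries. The mean level in KO amounted to 66.6% of that in WT, a log2 difference of -0.59 with an adjusted p of 0.469 in limma. In the same libraries Dll1 amounted to 10.05%, 9.08% and 8.23% of the Neurog3 level in KO and to 5.95%, 7.77% and 7.18% in WT. This ratio was higher in every KO library than in any WT library, but its divisor, Neurog3, was itself lower in every KO library. Dll1 alone overlapped between groups, and how often such a ratio separates over all genes was not computed. Set against the sum of 11 endocrine markers, Dll1 was 1.12%, 0.828% and 0.763% in KO and 0.708%, 0.939% and 1.002% in WT, with overlap. Set against the sum of 12 epithelial markers, Dll1 was 0.473%, 0.538% and 0.501% in KO and 0.536%, 0.671% and 0.549% in WT, and the groups overlapped in KO 2 and WT 1. Most of the endocrine sum came from Gcg and Chgb, and most of the epithelial sum from Cpa1, Cldn6 and Cdh1, so shares of these sums mainly follow those genes.

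The Hes repressors are known to bind short sites of the forms CACGNG and CACNAG (the N box), and Dll1 and Neurog3 are known to be repressed by Hes1, so the start regions of both genes are shown. Each window runs 5′ to 3′ along the gene from 250 bases before an annotated start to 50 bases after it, with CACGNG on either strand in capitals (RefSeq, build GRCm38.p6). Dll1 has an upstream start, on the minus strand at chr17:15376883-15377182, and a downstream start, on the minus strand at chr17:15375774-15376073. Neurog3 lies on the plus strand at chr10:62132840-62133139.
Dll1 upstream start: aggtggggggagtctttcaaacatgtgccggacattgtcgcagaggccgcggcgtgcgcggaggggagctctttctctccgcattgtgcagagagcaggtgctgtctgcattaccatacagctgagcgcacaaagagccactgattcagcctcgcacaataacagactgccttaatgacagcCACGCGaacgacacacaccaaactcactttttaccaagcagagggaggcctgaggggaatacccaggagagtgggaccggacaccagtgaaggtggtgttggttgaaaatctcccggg
Dll1 downstream start: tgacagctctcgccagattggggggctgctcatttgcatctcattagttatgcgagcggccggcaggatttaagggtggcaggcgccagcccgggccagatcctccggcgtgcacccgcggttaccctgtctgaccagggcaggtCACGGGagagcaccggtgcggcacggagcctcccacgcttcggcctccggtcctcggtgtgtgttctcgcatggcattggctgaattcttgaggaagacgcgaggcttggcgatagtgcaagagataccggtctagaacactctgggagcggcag
Neurog3 start: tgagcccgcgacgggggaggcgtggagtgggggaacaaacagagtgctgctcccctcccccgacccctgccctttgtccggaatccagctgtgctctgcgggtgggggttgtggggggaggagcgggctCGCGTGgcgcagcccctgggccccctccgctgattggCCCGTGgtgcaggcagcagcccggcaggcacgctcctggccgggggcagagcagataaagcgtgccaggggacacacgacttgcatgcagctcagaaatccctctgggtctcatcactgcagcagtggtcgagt

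The upstream Dll1 window held 1 such site, starting 68 bases before the start, and 1 N box, and the downstream window held 1 site, 105 bases before its start, and 0 N boxes. The Neurog3 window held 2 sites, 121 and 84 bases before the start. Windows were found for 8 of the 10 genes (not for Hes1 and Hey1), 9 windows in all, and 7 of the 9 held CACGNG on at least 1 strand, beside 27.5% of all 32851 windows. For the N box it was 5 of 9 windows and 42.5% of all. The median GC content was 63.7% in the 9 windows and 52.7% in all, and a match of letters is not a bound site.

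Hes1, the repressor downstream of Notch, was 15.7, 17.3 and 15.7 in KO and 19.2, 19.1 and 19.1 in WT. The WT libraries lay close together, the KO libraries were all below them, and KO 2 came closest. The KO mean was 16.2 ± 0.941 and the WT mean 19.1 ± 0.068. The log2 difference of -0.23 (SE 0.069, 95% interval -0.39 to -0.066) had an unadjusted p of 0.012 and an adjusted p of 0.469 in limma. It was -0.20 in the GC-high set, -0.27 in the GC-low set and -0.27 after GC correction (limma, adjusted p = 0.381). Leaving out each library in turn gave -0.27 to -0.20. The adjusted p ranged from 0.175, without WT 3, to 0.907, without WT 1, over all alternatives.

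Of the 12 epithelial markers, 5 had a higher mean in KO (53.5% of all genes). At an unadjusted p of 0.05 in limma 1 was lower (4.36% of all genes), and the sums of the markers overlapped between groups. Sox9, the progenitor factor made by the cells that also make Hes1, averaged 48.4 ± 7.90 in KO and 57.5 ± 2.69 in WT, and KO 2 lay within the WT range. Hes1 amounted to 34.4%, 30.2% and 37.1% of the Sox9 level in KO and to 33.5%, 31.7% and 34.8% in WT, and the KO range took in the WT range. As a share of the sum of the 12 epithelial markers Hes1 was 2.17%, 2.01% and 2.72% in KO and 2.60%, 2.98% and 2.50% in WT, again with overlap. Mesenchyme markers (9 genes) summed to 739 to 818 in KO and 807 to 837 in WT, with overlap, and 3 of 9 had a higher mean in KO (53.5% of all genes). Whole-tissue values do not say which cells the Hes1 RNA came from. The part of progenitor or other cell numbers in the Hes1 difference was not tested.

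Hey1, a Notch target of endothelial and other cells, had a density of 6.27, 4.95 and 5.94 in the KO libraries and of 6.17, 6.14 and 5.81 in the WT libraries. KO 2 was the lowest library and KO 1 the highest. The log2 difference of -0.072 had a 95% interval of -0.29 to 0.15 (limma, adjusted p = 0.736), and without KO 2 it was 0.014. As a share of the endothelial sum Hey1 was 4.49%, 3.28% and 3.62% in KO and 5.04%, 5.10% and 4.51% in WT. Every KO share was below every WT share, but the sum itself was higher in every KO library (140 to 164 against 120 to 129). Hey1 alone overlapped between groups, and how often such a ratio separates over all genes was not computed.

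**Figure D3:**
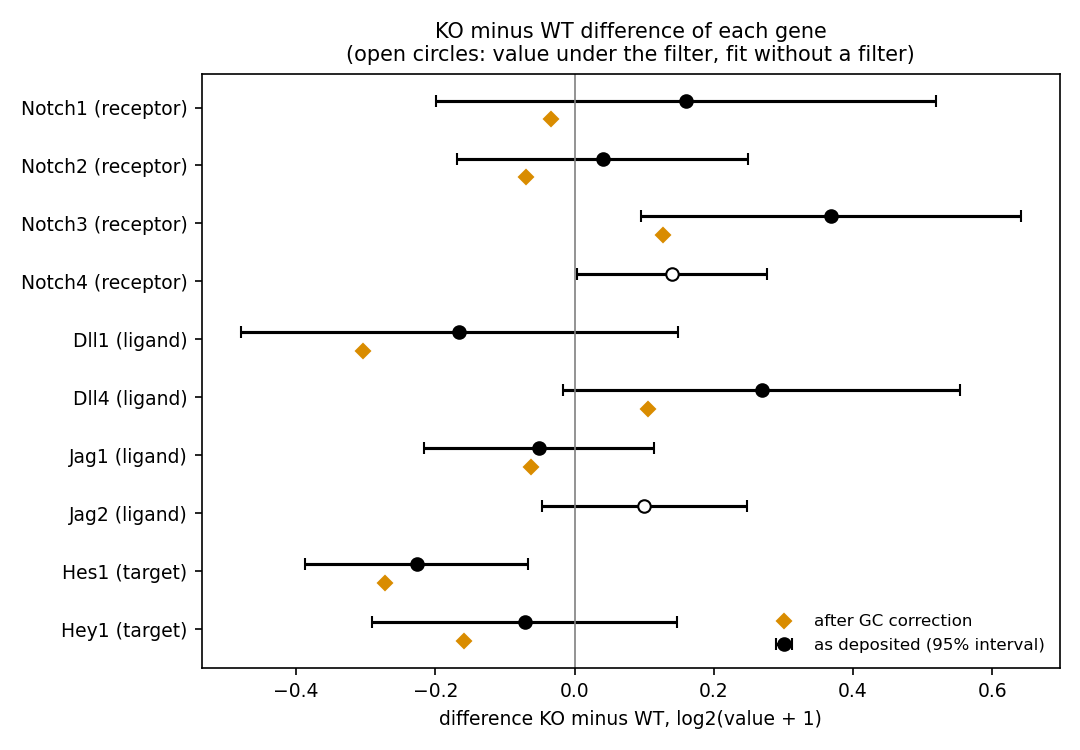
Difference of each gene, KO minus WT, on the log2(value + 1) scale with its 95% interval (black, open circles for Notch4 and Jag2 from the fit without a filter), and the same difference after correction for GC content (orange). Intervals of Notch3 (0.096 to 0.64) and Notch4 (0.0028 to 0.28) lie above 0 and that of Hes1 (-0.39 to -0.066) below it before adjustment for the number of genes, and after GC correction Notch3 is at 0.13 and Hes1 at -0.27.

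Around these genes, 67 other genes of the pathway were listed, 65 were in the files and 59 passed the filter. None of the 59 passed limma at an adjusted p of 0.05 (0 higher and 0 lower). At an unadjusted p of 0.05 limma called 5 as higher (5.89% of all genes) and 3 as lower (4.36% of all genes). In 38 of the 59 the mean was higher in KO, beside 53.5% of all genes, and the median log2 difference was 0.029, against 0.014 over all genes. The groups did not overlap for Pofut1, Maml1, Maml3, Dtx1 and Dtx3, higher in KO (7.67% of all genes), and for Adam10, Dtx4, Neurog3 and Insm1, lower in KO (8.77% of all genes); Maml1 and Dtx4 are named for this pattern, after their values were seen.

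Maml3, a Mastermind coactivator that joins the Notch intracellular domain and Rbpj, had the largest difference upward. It was 31.3, 35.1 and 33.1 in KO and 24.0, 23.6 and 25.9 in WT, so that the lowest KO library was well above the highest WT library. The log2 difference was 0.42 (SE 0.074) with an unadjusted p of 0.00059 and an adjusted p of 0.469 in limma, it was 0.34 in the GC-high set and 0.46 in the GC-low set, and it was 0.34 after GC correction (limma, adjusted p = 0.313). Rbpj itself averaged 19.6 ± 1.81 in KO and 20.1 ± 1.95 in WT, and its groups overlapped. Snw1, a cofactor of the same complex, was 25.4 ± 1.63 and 27.8 ± 1.25.

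Among genes that modify or cleave the receptors, Pofut1, which adds fucose to Notch, was 15.5, 17.1 and 14.4 in KO and 12.1, 12.7 and 14.3 in WT, where KO 3 and WT 3 nearly met. Rfng, a Fringe glycosyltransferase, was 8.68 ± 0.859 in KO and 7.18 ± 0.526 in WT, and its log2 difference of 0.24 was 0.0039 after GC correction. Adam10, the protease that makes the first cut after ligand binding, was 55.8, 57.8 and 59.5 in KO and 65.8, 65.1 and 60.7 in WT, below WT in all KO libraries, with a log2 difference of -0.14 (limma, adjusted p = 0.469) that was -0.064 after GC correction. Psen2, a catalytic subunit of gamma-secretase, was 2.52 ± 0.357 in KO and 1.94 ± 0.685 in WT, with overlap. Of the ubiquitin ligases that send ligands into endocytosis, Mib2 was 1.32 ± 0.420 in KO and 0.791 ± 0.285 in WT, and Neurl1a 1.56 ± 0.153 and 1.30 ± 0.119, and both overlapped between groups. The log2 difference was 0.37 for Mib2 and 0.16 for Neurl1a, and after GC correction it was 0.10 and -0.14.

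The Deltex genes Dtx1 and Dtx3 encode ubiquitin ligases of the Notch pathway. Dtx1 was 1.32, 1.56 and 1.07 in KO and 0.823, 0.820 and 0.901 in WT, and Dtx3 was 6.73, 7.29 and 6.01 in KO and 4.50, 4.92 and 5.81 in WT. Both were higher in every KO library, with log2 differences of 0.32 and 0.34 (limma, adjusted p = 0.469 each) that were 0.031 and 0.11 after GC correction. Nrarp, a feedback inhibitor induced by Notch, was 12.8 ± 1.02 in KO and 13.4 ± 0.784 in WT. Of the corepressors, Hdac2 was 33.0 ± 2.95 in KO and 36.7 ± 1.38 in WT and Spen 4.66 ± 1.49 and 3.46 ± 0.595, each overlapping between groups.

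The other measured Hes and Hey genes overlapped between groups. Heyl, a Notch target of vessel walls, was 5.71 ± 0.450 in KO and 5.71 ± 0.589 in WT, Hey2 was 4.05 ± 0.777 and 3.83 ± 0.411, and Hes6, which opposes Hes1 and accompanies endocrine differentiation, was 34.9 ± 4.60 and 32.0 ± 4.12. Hes5, a main Notch target in the nervous system, was near the floor of 0.01 in all libraries, at 0.0245 in each KO library and at 0.0103 to 0.0428 in WT. Dll3, a Delta ligand that acts inside the cell, was 0.631 ± 0.163 in KO and 0.603 ± 0.081 in WT. Dlk1, a Delta-like protein of fetal tissue, averaged 188 ± 24.1 in KO and 171 ± 19.7 in WT.

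Proneural and endocrine genes, which Notch signalling is known to restrain, formed the last group. Insm1, a target of Neurog3 and an endocrine factor, was 7.5, 11.3 and 7.49 in KO and 14.4, 11.9 and 12.6 in WT, below WT in all KO libraries, with a log2 difference of -0.54 (limma, adjusted p = 0.469). Of the 4 proneural and endocrine genes listed, Neurog3, Insm1 and Neurod1, 3 in all, had a lower mean in KO, each at an unadjusted p of 0.05 in limma (4.36% of all genes), and the median log2 difference was -0.49, or -0.58 after GC correction. The endocrine marker sum (11 genes) was 306 to 558 in KO and 418 to 558 in WT. Lower endocrine factors were known from these libraries when the list was made, so it is no independent evidence of direction.

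**Figure D4:**
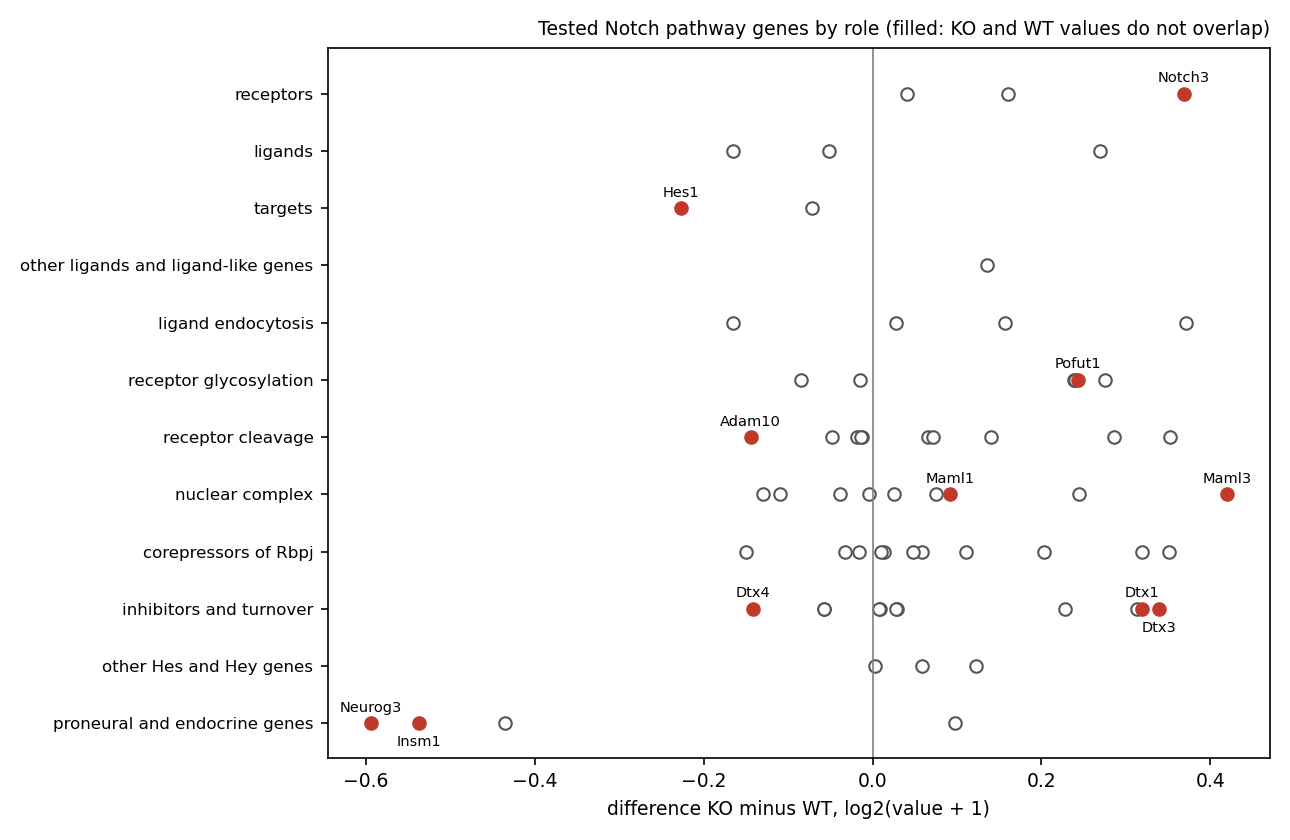
Difference KO minus WT on the log2(value + 1) scale for the 8 tested genes of the core list and the 59 other tested pathway genes, in rows by role, with filled points for genes whose KO and WT values do not overlap. Maml3 is farthest right at 0.42 and Neurog3 farthest left at -0.59.

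The expression pattern across the 6 libraries was compared with that of all other tested genes by Pearson's r of log2(value + 1), as a description without a test. The most alike gene is the best of all tested genes, and the points share 6 libraries and their contrast in GC content. The most alike gene was Kcnh2 for Notch1 (r = 0.995), Nynrin for Notch3 (0.997), BC067074 for Notch2 (0.992), Zswim3 for Dll1 (0.984), Pdcd6ip for Jag1 (0.987), Cer1 for Hes1 (0.993) and Ptpmt1 for Hey1 (0.989). Between 17 genes, for Hey1, and 209 genes, for Notch1, had an r above 0.95.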

How the data were processed

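RNA was made into TruSeq RNA v2 libraries, per the labels' protocols. Per the submitters' processing notes, CASAVA 1.82, Bowtie 0.12.7 and build mm9 were used. How reads were counted and scaled is not given in the sources used here. In each file, the authors deposited 1 signal value per gene and library, with a floor of 0.01. The value times the exonic length was a whole multiple of 0.01, within 0.02, in every library for 7258 of 17482 genes with several exons (111 with the length raised by 1 base), as for a density averaged over exonic bases. Read numbers were estimated from value, length and the step of 1 read in genes with 1 exon under 250 bases, where 97.2% to 98.8% of values were whole within rounding. They are estimates, used for depth and for 1 added alternative (limma-voom).

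Symbols were found for 22624 of 24389 identifiers, and GRCm38 annotation served only for names, GC content, exonic length and overlap. Values as deposited, after log2(value + 1), entered limma 3.58.1 (R 4.3.3; mean-variance trend, group as the only term, mean of at least 1). A fold change on this scale understates the change of low genes. The script was tested on simulated data. Genes named are the 10 members; of each pathway role those past the threshold or else the 2 with the lowest p; always Rbpj, Hes5, Heyl, Nrarp, Neurog3 and Dll3; the gene most alike each tested member (that of Dll4 is not reported here); Bicc1; and the first 2 markers of a list. Sox9, Barx1, Afp, Neurod1, Maml1, Dtx4, Nrp1, Gcg, Chgb, Cpa1, Cldn6 and the marker shares were chosen after their values were seen. Members and lists were chosen with earlier results of these data known. GC correction was a loess fit (span 0.3) per library. Tables were made with Python 3.11.15.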

Additional observations from a re-analysis of the deposited data

How the results depend on the processing

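Over the 19 alternatives limma called 0 of the Notch genes and 0 of the other pathway genes, with an adjusted p of 0.135 to 0.99 for the 8 tested Notch genes. Of 152 such refits 144 kept the direction, and Notch3, Dll1, Dll4, Jag1 and Hes1 kept it in each. Genes called in all, 2 in the deposited scaling, were 1 with no filter on low values, 4 after GC correction, 1 with the replicate block and GC correction, and 1 to 8 on leaving out each library (8 without KO 2, 2 without WT 2, 1 without each of the others). Replicate numbers did not pair the libraries (correlations of deviations of -0.22, -0.40 and -0.64 for numbers 1, 2 and 3), and with the replicate block as a term 0 genes were called. After GC correction, with or without the block, the log2 difference was -0.033 for Notch1, -0.069 for Notch2, 0.027 for Rbpj, -0.15 for Heyl, -0.14 for Neurl1a and -0.15 for Hes6, each turned round, and the cause was not tested. With the GC-high or GC-low set as a term, Rbpj was at 0.020 and Heyl at -0.058. Heyl was also at -0.0042, -0.0074 and -0.0096 when scaled by median ratios, totals and upper quartiles, and at -2.3e-05 with limma-voom on estimated reads, an alternative chosen after seeing the data. Leaving out each library gave -0.0087 to 0.27 for Notch1, -0.0058 to 0.12 for Notch2, -0.13 to 0.014 for Hey1, -0.11 to 0.036 for Rbpj, -0.045 to 0.073 for Heyl and -0.043 to 0.18 for Hey2. Among the 10 Notch genes Jag2 has the fewest estimated reads (66 to 200), and among the pathway genes named Hes5 has 2 to 11.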
